A study of Homo sapiens with 6 samples.

Results

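The genes of 2-arachidonoylglycerol (2-AG) and related endocannabinoids were followed in 6 RNA sequencing libraries of Hep3B, an established human hepatocellular carcinoma cell line. The set was given by name: DAGLA, DAGLB, MGLL, ABHD6, ABHD12, FAAH, NAPEPLD, CNR1, CNR2 and TRPV1. Of these 10 genes, 8 had a row among the 29908 Ensembl genes of the deposited table, and 7 reached the level at which genes were tested. CNR1 and CNR2, the genes of the cannabinoid receptors, had no row in the table as used here and are not analysed. Every row of the table held at least 1 read over the 6 libraries, and 16365 of the 19969 protein-coding genes in GENCODE release 29 had a row. Hep3B-Con cells (3 libraries) were infected with a control lentivirus, which the titles call shControl and the design text an empty vector. Hep3B-KD cells (3 libraries) were infected with a lentivirus carrying a short hairpin RNA (shRNA) against DAGLA. Both groups shared the cell line, a multiplicity of infection of 5 and selection with puromycin. A single hairpin in a single cell line stands for the knockdown, and the sources do not say whether the replicates were infected separately, so p-values measure the spread between these libraries.

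Endocannabinoids are lipids made on demand from membrane phospholipids. Phospholipase C releases diacylglycerol, and a diacylglycerol lipase, the product of DAGLA or DAGLB, cuts it to 2-AG. Monoacylglycerol lipase (MGLL) and the serine hydrolases ABHD6 and ABHD12 break 2-AG down to arachidonic acid and glycerol. Anandamide and other N-acylethanolamines take a separate route, in which NAPEPLD releases them from N-acylated phosphatidylethanolamine and fatty acid amide hydrolase (FAAH) degrades them. CNR1 and CNR2 are coupled to inhibitory G proteins, and TRPV1 is a cation channel that anandamide can open. In liver, stellate cells, hepatocytes and macrophages can all take part in this signalling.

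The target of the hairpin is shown because it ties the knockdown to 1 gene of the set. The 19 bases matched 1 gene, DAGLA, exactly among 206694 GENCODE 29 transcripts, at bases 2011 to 2029 of the 5757 bases of the transcript DAGLA-201. They lie in the coding sequence of exon 18 of 20, at chr11:61740504-61740522 of GRCh38 on the plus strand. In the target, capitals mark the bases that pair with the seed of the guide strand. In the guide strand, which was written as the reverse complement of the target, capitals mark the seed itself (bases 2 to 8, counted from the 5' end).
shDAGLA target: gcgacaacaagGCCTTCAa
guide strand: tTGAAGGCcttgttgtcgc

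The closest stretch to the target was sought in the transcripts of the other 9 genes. The sites in DAGLB, the paralog of DAGLA, and TRPV1 are shown because DAGLB has the same enzymatic role and TRPV1 had the fewest mismatches. Capitals mark bases that differ from the target.
DAGLB site: gcgacGacTTggTcttcCC
TRPV1 site: CcgacaacaCggccGAcaa
The DAGLB site, in the coding sequence, had 6 mismatches and the TRPV1 site, also coding, had 4 (G1C, A10C, T15G and T16A, with the base of the target first and positions counted from its 5' end). The other 7 genes had 6 to 8 mismatches at their closest site, and the 7-base seed match GCCTTCA was kept at the closest site of DAGLA only. In 3' UTRs, the letters GCCTTCA occurred at 2 places in DAGLA and at 1 place in NAPEPLD, and at 0 places in the other 6 genes with a row. Of the 11188 genes tested that had a 3' UTR of at least 50 bases, 14.6% held it. The 3' UTR of NAPEPLD, at 3651 bases, was longer than the median of 1389. A match of letters is a description of the sequence and not a measured site of action.

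Read counts were recovered from the FPKM values. Summed over genes, they came to between 15861039 and 17572714 reads per library. At this depth 1 read in a gene of 1 kb of exons was worth 0.0569 to 0.0630 FPKM. FPKM are reads per kb of exon, scaled to the depth of each library. The samples were checked against marker genes of liver and other cells. All 10 hepatocyte markers were well above the lowest level tested, and their summed FPKM was 2789 to 2834 in Hep3B-Con and 4605 to 4632 in Hep3B-KD, with 8 genes higher and 2 lower (60.3% of all genes passed), of which SERPINA1 lost its call under median centring (adjusted p = 0.134). ALB, the most abundant, was at 2042 and 3315 FPKM, and APOB and APOH rose by 1.20 and 1.33 on the log2 scale. The 2 lower markers were FGB, from 19.5 to 9.96 FPKM, and HNF4A, from 56.2 to 43.9 FPKM. The 5 fibroblast or stellate cell markers summed to 9.28 to 10.2 FPKM in Hep3B-Con and 5.48 to 5.94 in Hep3B-KD. Of the 3 that were tested 0 were higher and 3 lower, beside 36.3% and 24% of all genes tested. LUM went from 6.03 to 3.29 FPKM, PDGFRB from 2.67 to 2.11 and COL1A1 from 0.745 to 0.271, while DCN was at 0.00454 and 0.00474. Endothelial markers reached at most 0.385 FPKM in sum and leukocyte markers 1.32, most of it CD14 at 1.08 and 0.862 FPKM, which did not pass, with PTPRC at 0.0276 and 0.0112. Among neuron markers, SNAP25 was at 5.10 and 8.42 FPKM and RBFOX3 at 0.0216 and 0.0229. SYP, with 3 to 15 reads per library, was at 0.0371 and 0.158 FPKM, below the level tested. The part of these marker changes in the results below was not tested.

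In Hep3B-KD cells DAGLA fell to 49.8% of its Hep3B-Con level, while NAPEPLD rose 1.70-fold and FAAH and TRPV1 rose by smaller amounts. DAGLB, ABHD6 and ABHD12 did not pass the test, and MGLL was too low in both groups to be tested. Of the 7 genes tested, 4 had an adjusted p under 0.05 (57.1%), 3 of them higher and 1 lower, compared with 60.3% (8529) of all 14147 genes tested (36.3% higher and 24% lower). Of those 8529 genes 60.2% were higher, and of the genes passing with libraries centred on their median log ratio 48.6%. The share among these genes was near that of the whole transcriptome in this scaling, but 2 of the 7 passed under median centring and 2 under quantile normalization, compared with 8376 and 8185 of all 14147 genes. By limma, 0 of the 7 combined an adjusted p under 0.05 (or an unadjusted one) with a fold change of at least 2 on the log2(FPKM + 0.1) scale, which held for 8.83% (1249) of all genes tested (5.88% higher and 2.95% lower). DAGLA lay at this threshold, just short of it, and passed it in 6 of 18 alternatives, among them limma voom on recovered reads and median centring. In 5 of the 7 genes the 3 Hep3B-KD values did not overlap with the 3 Hep3B-Con values, 4 of them above and 1 below, compared with 67.2% of all genes (40.8% above and 26.4% below).

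**Figure D1:**
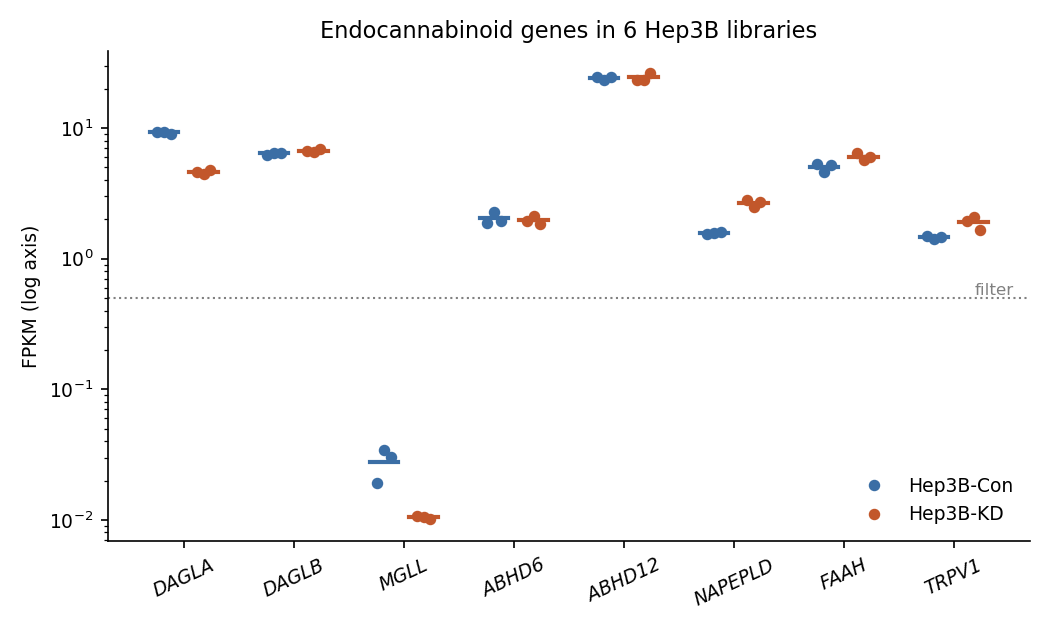
FPKM (log axis) of the 8 endocannabinoid genes with a row in the table, in 3 Hep3B-Con and 3 Hep3B-KD libraries. Points are libraries, short lines are group means, and the dotted line is the mean of 0.5 FPKM below which genes were not tested. DAGLA lies at 9.02 to 9.42 FPKM in Hep3B-Con and 4.46 to 4.78 in Hep3B-KD, ABHD12 is the highest gene in both groups, and MGLL stays below 0.04.

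DAGLA, the gene of diacylglycerol lipase alpha, spans chr11:61680433-61747001 (GRCh38, plus strand). Its FPKM was 9.42, 9.40 and 9.02 in Hep3B-Con replicates 1 to 3, and 4.62, 4.46 and 4.78 in Hep3B-KD replicates 1 to 3. All 3 Hep3B-KD libraries lay below the lowest Hep3B-Con library. The means were 9.28 ± 0.228 and 4.62 ± 0.164 FPKM (SD, n = 3), a log2 fold change of -0.99 (SE 0.0442, 95% interval -1.10 to -0.885, adjusted p = 4.9e-06, limma). The Hep3B-Con libraries held 864 to 953 reads of the gene, and the Hep3B-KD libraries 412 to 457. The spread between replicates, a coefficient of variation of 2.46% in Hep3B-Con and 3.55% in Hep3B-KD, was below the 3.30% and 4.82% that counting error alone would give. A spread of 3 values is itself uncertain for a single gene. Over the genes compared, replicates of a group differed by more than counting error, with a chi-square per gene of 1.8 to 3.30. In these bulk libraries, fewer cells with DAGLA transcript and less transcript per cell cannot be told apart. Among all genes tested, 519 (3.67%) had a lower log2 fold change than the targeted gene. A lincRNA on the opposite strand, DKFZP434K028, shares 509 exon bases with DAGLA (8.84% of its exon length) and had 8 to 25 reads per library. Since the sources do not state whether counting used strand, reads of that stretch are of uncertain origin.

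DAGLB, the gene of diacylglycerol lipase beta, spans chr7:6409126-6484190 (minus strand). It stood at 6.22, 6.50 and 6.49 FPKM in Hep3B-Con and 6.70, 6.52 and 6.94 in Hep3B-KD. The Hep3B-KD values all lay above the Hep3B-Con values, but by a small margin. The means of 6.40 ± 0.159 and 6.72 ± 0.21 FPKM (SD, n = 3) gave a log2 fold change of 0.07 with a 95% interval of -0.0337 to 0.172, which did not pass the test (adjusted p = 0.207, limma), and its sign turned when libraries were centred on the median gene or quantile normalized. The interval corresponds to folds of 0.977 to 1.13 on the log2(FPKM + 0.1) scale. DAGLB shares 376 exon bases (6.53%) with KDELR2 on the same strand, a gene at 96.1 FPKM in Hep3B-Con and 79.5 in Hep3B-KD, so part of its count is uncertain.

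The balance of the pair changed. The share, ratio and sum given here restate the fall of the targeted gene beside DAGLB and are not a separate result. DAGLA made up 60.2%, 59.1% and 58.1% of the summed diacylglycerol lipase FPKM in the Hep3B-Con libraries and 40.8%, 40.6% and 40.8% in the Hep3B-KD libraries. The groups did not overlap, and the mean share moved from 59.2% ± 1.05 to 40.7% ± 0.125 (SD, n = 3), by -18.4 percentage points (exact permutation test, two-sided, p = 0.1, which is the lowest p that 3 against 3 libraries allow). DAGLA thus had the higher FPKM of the pair in each Hep3B-Con library and DAGLB in each Hep3B-KD library. These FPKM are scaled to exon lengths of 5757 bases for DAGLA and 5756 for DAGLB. The former is also the length of the transcript DAGLA-201, while no transcript length was compared for DAGLB. Where the transcripts present are shorter than the exon length, FPKM understate their level. Which transcripts were present was not tested, so the order, share, ratio and sum of the pair hold for FPKM only. The ratio of DAGLB to DAGLA FPKM was 0.69 ± 0.03 in Hep3B-Con and 1.46 ± 0.00756 in Hep3B-KD (SD, n = 3). The sum of both genes was 15.7 ± 0.2 FPKM in Hep3B-Con and 11.3 ± 0.374 in Hep3B-KD (SD, n = 3), so that 72.3% of the summed diacylglycerol lipase FPKM was present in Hep3B-KD.

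**Figure D2:**
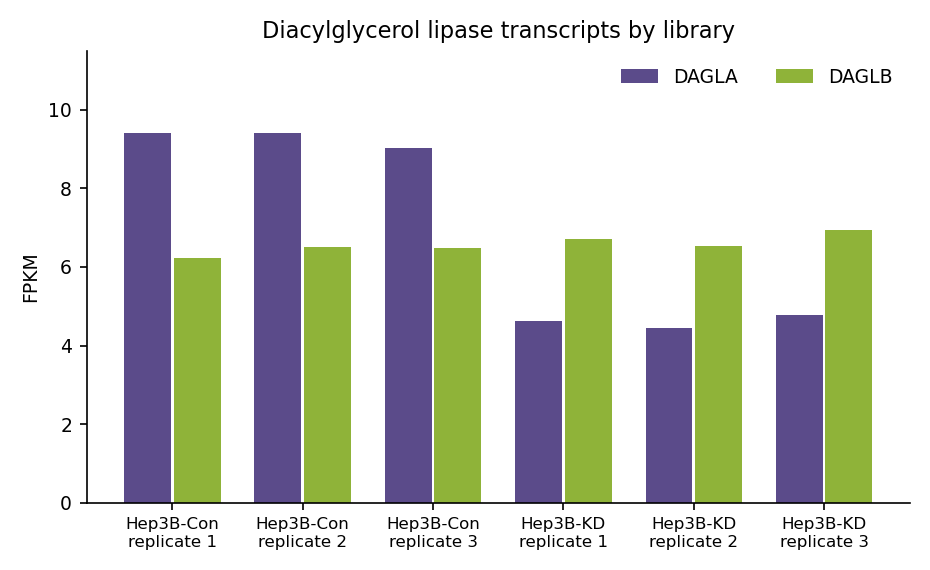
FPKM of DAGLA and DAGLB in each of the 6 libraries (bars, 1 value each, axis from 0). DAGLA stands above DAGLB in the 3 Hep3B-Con libraries and below it in the 3 Hep3B-KD libraries, while DAGLB stays between 6.22 and 6.94 FPKM throughout.

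Among MGLL, ABHD6 and ABHD12, the last made up nearly all of the transcript measured, and neither of the tested genes, ABHD6 and ABHD12, passed. ABHD12, a membrane-bound lipase also known to act on lysophosphatidylserine, spans chr20:25294743-25390983 (minus strand). Its FPKM was 24.8, 23.2 and 24.8 in Hep3B-Con and 23.6, 23.5 and 26.4 in Hep3B-KD. The groups overlapped, with a log2 fold change of 0.01 (95% interval -0.117 to 0.143, adjusted p = 0.85, limma) whose sign turned under median centring. The interval corresponds to folds of 0.922 to 1.10, and between 1281 and 1504 reads per library stood behind the values.

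ABHD6, which is known to act on 2-AG at the inner face of the plasma membrane, spans chr3:58237506-58295693 (plus strand). It was at 1.89, 2.28 and 1.94 FPKM in Hep3B-Con and at 1.95, 2.13 and 1.85 in Hep3B-KD, so the groups overlapped. The log2 fold change was -0.04 (95% interval -0.283 to 0.207, adjusted p = 0.773, limma), which corresponds to folds of 0.822 to 1.15. With 110 to 142 reads per library, smaller differences were not detectable at this depth.

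MGLL, which carries most of the 2-AG hydrolysis in brain, spans chr3:127689062-128052190 (minus strand) and was close to absent. It had 4, 7 and 6 reads in the Hep3B-Con libraries and 2, 2 and 2 in the Hep3B-KD libraries. These correspond to 0.0192, 0.0340 and 0.0304 FPKM and to 0.0106, 0.0105 and 0.0102 FPKM. Summed over libraries, the 17 reads in Hep3B-Con (exact Poisson 95% interval 9.90 to 27.2) stood against 51599675 and the 6 in Hep3B-KD (2.20 to 13.1) against 48514579, a ratio of 0.375 with an exact 95% interval of 0.121 to 0.998. These intervals cover counting error only. The gene lay below the 0.5 FPKM set for testing, and in a fit without that limit its log2 fold change was -0.21 (adjusted p = 0.353, limma). That fit used log2(FPKM + 0.1), and the added 0.1 exceeds every value of the gene, so this scale understates its change.

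As a share of the FPKM of the 3 hydrolases together, MGLL accounted for 0.106% ± 0.0313 in Hep3B-Con and 0.0396% ± 0.00313 in Hep3B-KD (SD, n = 3, two-sided exact permutation p = 0.1, the smallest possible). This difference of -0.0668 percentage points was -0.229 when shares were taken of recovered reads, which are not scaled to exon length. ABHD12 accounted for 92.1% ± 1.05 and 92.5% ± 0.908 (SD, n = 3). The sum of the 3 hydrolases was 26.3 ± 0.703 FPKM in Hep3B-Con and 26.5 ± 1.57 in Hep3B-KD (SD, n = 3), a difference within the spread between replicates.

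NAPEPLD and FAAH, the members of the N-acylethanolamine route, were higher in Hep3B-KD. NAPEPLD spans chr7:103099776-103149560 (minus strand). Its FPKM was 1.55, 1.58 and 1.60 in Hep3B-Con and 2.83, 2.48 and 2.73 in Hep3B-KD. The lowest Hep3B-KD library was well above the highest Hep3B-Con library. The means were 1.58 ± 0.0239 and 2.68 ± 0.179 FPKM (SD, n = 3), a log2 fold change of 0.73 (SE 0.079, 95% interval 0.537 to 0.915, adjusted p = 0.000245, limma). The gene had 201 to 208 reads in the Hep3B-Con libraries and 301 to 342 in the Hep3B-KD libraries. After DAGLA, this was the member with the largest change in size among the 7 tested.

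FAAH spans chr1:46394265-46413848 (plus strand) and stood at 5.29, 4.62 and 5.26 FPKM in Hep3B-Con and 6.43, 5.72 and 5.97 in Hep3B-KD. The groups did not overlap, although the lowest Hep3B-KD and the highest Hep3B-Con library were close. Its means of 5.06 ± 0.377 and 6.04 ± 0.359 FPKM (SD, n = 3) gave a log2 fold change of 0.25 (SE 0.0719, 95% interval 0.0806 to 0.425, adjusted p = 0.0205, limma). The call was lost under median centring (adjusted p = 0.116), under quantile normalization (0.193), in an ordinary linear model (0.0579) and without Hep3B-KD replicate 1 (0.0642), in a range of 0.0139 to 0.193 over 18 alternatives. The ratio of NAPEPLD to FAAH FPKM was 0.313 ± 0.026 in Hep3B-Con and 0.443 ± 0.012 in Hep3B-KD (SD, n = 3).

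TRPV1, the capsaicin receptor, spans chr17:3565444-3609411 (minus strand). It was at 1.50, 1.41 and 1.46 FPKM in Hep3B-Con and at 1.95, 2.10 and 1.67 in Hep3B-KD. All Hep3B-KD libraries lay above the Hep3B-Con libraries, with a wider spread among them. The means of 1.45 ± 0.0441 and 1.91 ± 0.218 FPKM (SD, n = 3) gave a log2 fold change of 0.36 (SE 0.107, 95% interval 0.108 to 0.621, adjusted p = 0.0232, limma). The adjusted p rose above 0.05 in 8 of 18 alternatives, up to 0.386 under quantile normalization, and the lowest value was 0.0081. TRPV1 shares 1658 exon bases (30.0% of its exon length) with the genes AC027796.3 and SHPK on the same strand. AC027796.3 had 0 to 3 reads per library, and SHPK had a mean of 1.43 FPKM in Hep3B-Con and 1.35 in Hep3B-KD without passing the test (adjusted p = 0.693, limma). The TRPV1 values are uncertain to that extent.

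Compared per exon length, the order of the levels differed between the groups. In Hep3B-Con it ran from ABHD12 through DAGLA, DAGLB, FAAH, ABHD6, NAPEPLD and TRPV1 to MGLL, and the ranges of all neighbours in this order were separate. In Hep3B-KD the order was ABHD12, DAGLB, FAAH, DAGLA, NAPEPLD, ABHD6, TRPV1 and MGLL. There the ranges of ABHD6 (1.85 to 2.13 FPKM) and TRPV1 (1.67 to 2.10 FPKM) overlapped and those of the other neighbours did not. DAGLA thus moved from rank 2 to rank 4, below DAGLB and FAAH. Among all genes tested in a library, DAGLA stood at percentiles 65.9 to 67.0 of FPKM in Hep3B-Con and 46.5 to 48.3 in Hep3B-KD, and ABHD12 at percentiles 85.6 to 88.2 over the 6 libraries.

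Over all genes tested the log2 fold change had a median of 0.11, and centring each library on its median log ratio brought it to 0.0055. Relative to the median gene, DAGLA was at -1.10, NAPEPLD at 0.62, TRPV1 at 0.26 and FAAH at 0.14. On the same relative scale DAGLB was at -0.04, ABHD12 at -0.10 and ABHD6 at -0.15. The median of the 7 tested members was 0.07 before this subtraction, beside 0.11 for all genes. With the libraries centred, 2 of the 7 members passed, DAGLA lower and NAPEPLD higher.

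**Figure D3:**
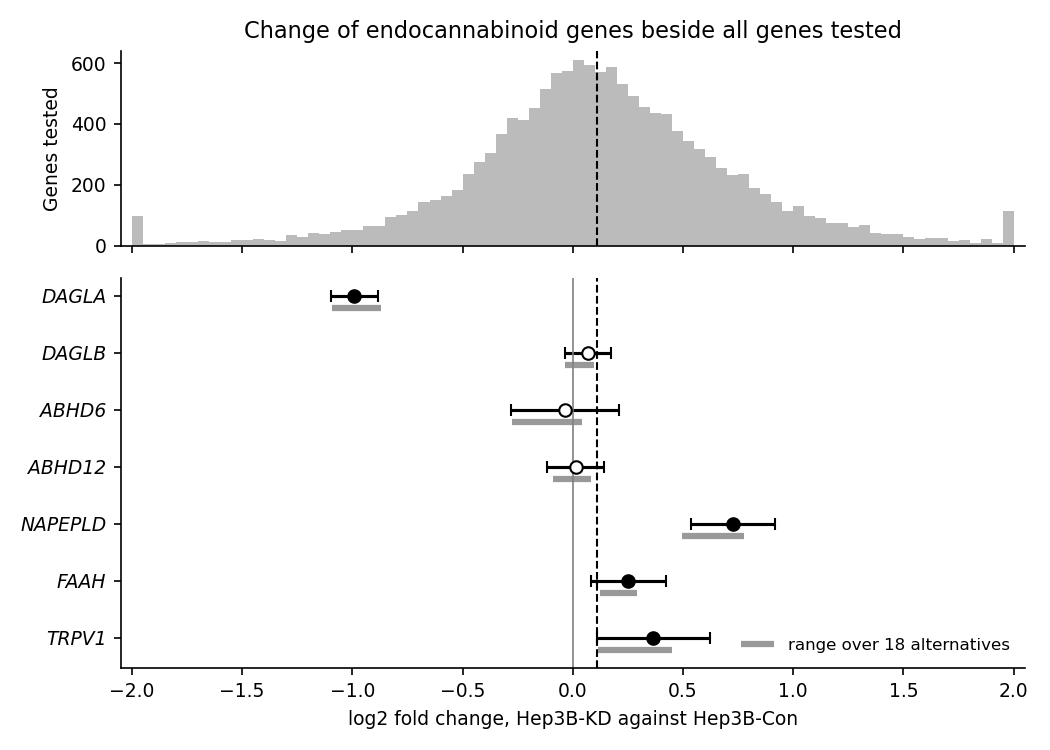
Upper panel, log2 fold changes of all 14147 genes tested, Hep3B-KD against Hep3B-Con, with values beyond 2 or -2 placed in the outermost bins and the median of 0.11 as a dashed line. Lower panel, the 7 members tested with 95% intervals (filled circles passed an adjusted p of 0.05) and, as grey bars, the range over 18 alternatives, which spans 0 for DAGLB, ABHD6 and ABHD12. DAGLA lies at -0.99 and NAPEPLD at 0.73, and neither grey bar reaches 0.

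The genes whose profile over the 6 libraries lay closest to that of DAGLA were listed by the root mean square (RMS) difference in log2(FPKM + 0.1), each gene set relative to its own Hep3B-Con mean. They were MSN (RMS 0.0366), NRAS (0.0393), AGAP1 (0.0419), FGB (0.0419) and PAQR8 (0.0420). Over the other 14146 genes tested the median RMS was 0.807, and 115 genes lay within 0.1. MSN, the gene of moesin, fell from 28.1 ± 0.562 to 13.9 ± 0.252 FPKM, and NRAS, a small GTPase, from 38.4 ± 0.582 to 18.9 ± 0.928 (SD, n = 3). Hep3B-Con and Hep3B-KD means were 8.72 and 4.31 FPKM for AGAP1, 19.5 and 9.96 for FGB, the fibrinogen beta chain, and 41.4 and 20.8 for PAQR8. These genes were selected for their likeness, so the values are a description without a test, and the likeness rests mainly on the difference between 2 groups.

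The steps next to the set were followed in 6 lists of genes. Phospholipase C, which supplies diacylglycerol, had 13 genes listed, 12 with a row and 7 tested, and 3 were higher, 3 lower and 1 did not pass, beside 60.3% of all genes that passed (36.3% higher and 24% lower). PLCD3 fell from 9.86, 9.61 and 9.56 FPKM in Hep3B-Con to 2.17, 2.24 and 2.02 in Hep3B-KD. This was a log2 fold change of -2.13 (SE 0.053, adjusted p = 5.1e-07, limma), the only one of the neighbouring genes tested to pass a fold change of at least 2 together with an adjusted p under 0.05. PLCG1, the isozyme activated by receptor tyrosine kinases, rose from 16.0 ± 0.309 to 24.0 ± 0.57 FPKM (log2 fold change 0.58), and PLCB3, which answers to G proteins, fell from 10.5 ± 0.582 to 8.86 ± 0.181 (-0.24; SD, n = 3 for both). PLCB1 (0.57) and PLCH1 (0.67) were also higher and PLCD4 (-0.62) lower, of which PLCH1 lost its call under quantile normalization (adjusted p = 0.181). The median of the list was 0.11 on the log2 scale, the same as over all genes. Under quantile normalization it was -0.14, beside 0.014 over all genes.

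Among other enzymes of N-acylethanolamines, 13 were listed, 11 had a row and 7 were tested, with 3 higher, 1 lower and 3 that did not pass, so that 4 of 7 passed beside 60.3% of all genes. GDE1, a phosphodiesterase that can release N-acylethanolamines, rose from 12.2 ± 0.151 to 17.6 ± 0.442 FPKM (SD, n = 3; log2 fold change 0.53, adjusted p = 1.47e-05, limma). PLA2G16, of the family that makes N-acylated phosphatidylethanolamine, rose from 5.31 ± 0.364 to 7.14 ± 0.435 FPKM (0.42; SD, n = 3). ABHD4, which removes acyl chains from that lipid, was higher by 0.88 and GDPD1, a lysophospholipase D, fell by 0.67 on the log2 scale. FAAH2 and NAAA, further N-acylethanolamine hydrolases, were at 0.642 and 1.81 FPKM in Hep3B-Con and at 0.714 and 1.99 in Hep3B-KD and did not pass. The list had a median of 0.19 on the log2 scale beside 0.11 over all genes, and of -0.13 under quantile normalization.

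Further enzymes known to act on 2-AG numbered 8, all with a row, and 4 were tested, of which 2 were higher and 1 lower, that is 3 of 4 beside 60.3% of all genes. ABHD2, a lipid hydrolase, rose from 27.8, 29.4 and 29.3 FPKM to 40.9, 38.3 and 40.5 (log2 fold change 0.47, adjusted p = 4.43e-05, limma). PPT1, a lysosomal thioesterase, fell from 28.2 ± 0.29 to 25.3 ± 0.377 FPKM (-0.15; SD, n = 3). The means of ABHD2 and PPT1 were above those of ABHD12 in both groups (24.2 and 24.5 FPKM), although PPT1 and ABHD12 overlapped in Hep3B-KD. CES2 was higher by 0.36 on the log2 scale and lost its call under quantile normalization (adjusted p = 0.0757), and ALOX12, at 1.67 and 1.93 FPKM, did not pass. PTGS2, which can oxidize 2-AG, was at 0.121 and 0.0935 FPKM in the group means and was not tested. The median of the 4 was 0.27, beside 0.11 over all genes, and 0.07 under quantile normalization.

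Of 6 proteins that carry these lipids inside the cell, 5 had a row and were tested, with 2 higher, 1 lower and 2 that did not pass, that is 3 of 5 that passed beside 60.3% of all genes. SCP2, a sterol carrier protein at 15.5 ± 0.386 FPKM in Hep3B-Con (SD, n = 3), was 1.16-fold higher in Hep3B-KD (log2 fold change 0.21). HSPA1A was at 11.1 ± 0.796 and 8.88 ± 0.738 FPKM (-0.32; SD, n = 3), a value that is uncertain because its near-identical copy HSPA1B can share reads with it. FABP1, the fatty acid binding protein of liver, was higher by 0.60, whereas FABP5 (-0.41, adjusted p = 0.058, limma) did not pass in this fit. With median centring or quantile normalization, 2 genes of this list were lower in place of 1. The median was 0.21 on the log2 scale, and 0.23 under quantile normalization.

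Other receptors for such lipids numbered 11, of which 9 had a row and 6 were tested, 2 higher and 2 lower, so 4 of 6 passed beside 60.3% of all genes. TRPV4, a cation channel related to TRPV1, fell from 17.7, 17.9 and 19.5 FPKM to 11.9, 10.7 and 11.4 (log2 fold change -0.70, adjusted p = 6.11e-05, limma). PPARG, a nuclear receptor for fatty acid derivatives, fell from 13.8 ± 0.188 to 9.66 ± 0.337 FPKM (-0.51; SD, n = 3). TRPV3 (0.89) and PPARD (0.45) were higher, and PPARA, at 1.61 and 1.42 FPKM, and GPR119, at 0.499 and 0.534, did not pass. Within the channels of the TRPV family that were tested, TRPV1 and TRPV3 were thus higher and TRPV4 lower, of which TRPV1 lost its call under median centring (adjusted p = 0.0738) and quantile normalization. The list median was -0.08 on the log2 scale, and -0.38 under quantile normalization, where 3 genes were lower in place of 2.

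Proteins that couple cannabinoid receptors to the cell, or switch them off, numbered 10, with 9 in the table and 7 tested. Of these, 1 was higher, 3 were lower and 3 did not pass, which makes 4 of 7 passing beside 60.3% of all genes. GRK2, a kinase that desensitizes receptors, fell from 46.6, 46.5 and 46.9 FPKM to 37.2, 35.1 and 36.7 (log2 fold change -0.36, adjusted p = 4.23e-05, limma). ARRB2, the gene of beta-arrestin 2, fell from 16.9 ± 0.427 to 12.6 ± 0.781 FPKM (-0.42; SD, n = 3). The inhibitory G protein subunit GNAI2 (-0.15) was lower and GNAI1 (0.22) higher, and both lost their calls under a change of scaling (adjusted p up to 0.081 and 0.311). The median was 0.06 on the log2 scale, and -0.18 under quantile normalization. GNAO1, the G protein subunit of neurons, was at 0.00716 and 0.0153 FPKM.

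**Figure D4:**
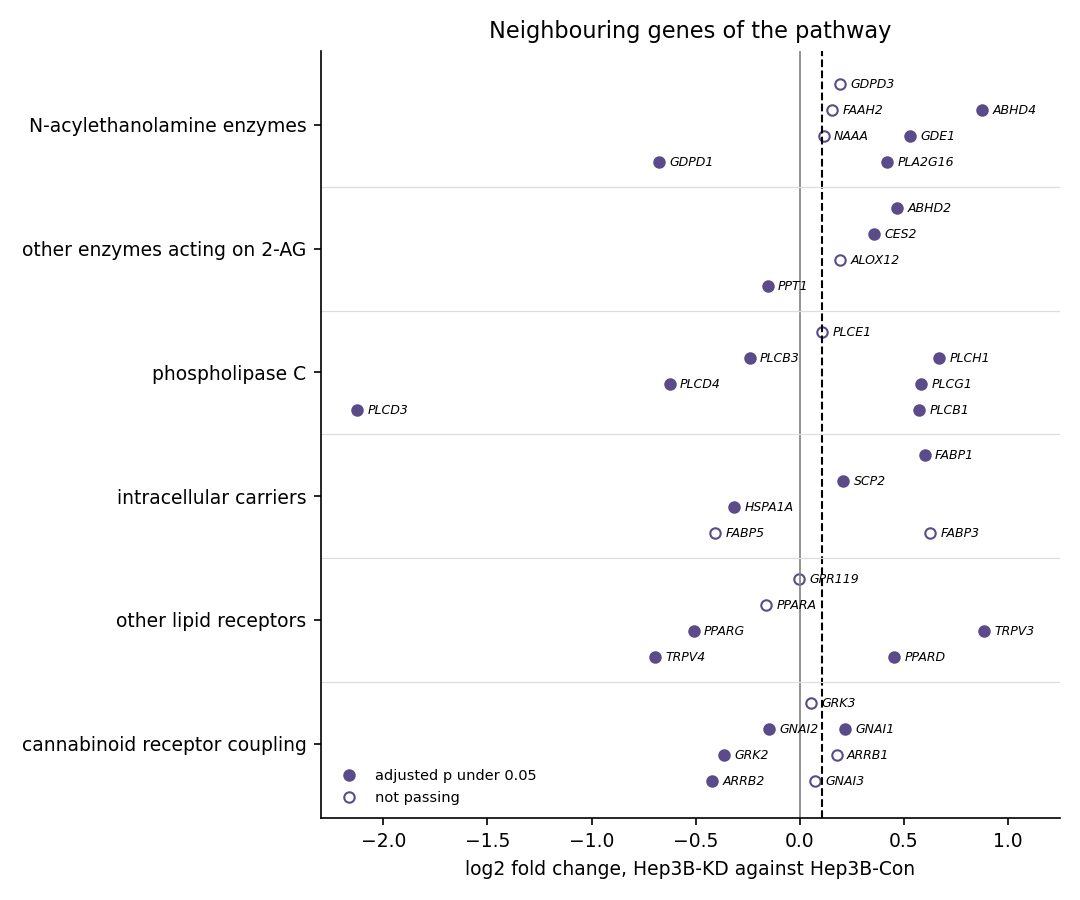
Log2 fold change, Hep3B-KD against Hep3B-Con, of the 36 tested genes in the 6 lists around the endocannabinoid set. Filled circles passed an adjusted p of 0.05, the solid line is 0 and the dashed line the median of all genes at 0.11. Each list holds genes on both sides of 0, and PLCD3 at -2.13 stands apart. Calls of PLCH1, CES2, GNAI1 and GNAI2 were lost under another scaling, and the carrier and receptor lists gained a lower call.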

How the data were processed

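Libraries of Hep3B-Con and Hep3B-KD (3 each) were grouped by their titles. The authors deposited FPKM values in 1 table, with 1 column per library. The submitters' processing notes name Bowtie2 2.0.6, TopHat2 2.0.12 and GRCh37. The identifiers and exon lengths, however, matched GENCODE release 29, with which 100% of values were whole reads within 0.01, so coordinates here are of GRCh38 from that annotation. The strand setting of the counting is not given in the sources used here. Reads were recovered from the FPKM values, and depth, their sum over genes, was 15861039 to 17572714 reads per library.

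Members and gene lists were chosen with earlier results of these data known. Genes whose mean over the libraries reached 0.5 FPKM, 1 row per symbol (382 rows had a repeated symbol), were analysed as log2(FPKM + 0.1) with limma 3.58.1 (eBayes with trend) in R 4.3.3, without a replicate block, and p-values were adjusted by Benjamini-Hochberg over all 14147 genes. Fold changes on this scale understate those of low genes. Shares were compared with a two-sided exact permutation test. The text names all members, in each pathway list the 2 most abundant genes and those with a fold of at least 2, and the 5 genes closest to DAGLA. Further genes of small groups, and single marker genes, were named after their values were seen. Python 3.11.15 with numpy 2.4.6, pandas 2.3.3, scipy 1.17.1 and matplotlib 3.10.9 was used.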

Additional observations from a re-analysis of the deposited data

How the results depend on the processing

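Each of the 7 members tested was refitted under 18 alternatives: no filter on low values, a stricter filter at 1 FPKM, pseudocount 1 or 0.01, equal sums, median centring, quantile normalization, no variance trend, an ordinary linear model, the replicate block, every row of a repeated symbol, limma voom on recovered reads, and each of the 6 libraries left out. DAGLA (log2 -1.09 to -0.87) and NAPEPLD (0.49 to 0.78) kept their direction and stayed below 0.05 in all 18, FAAH in 14 and TRPV1 in 10. The adjusted p of TRPV1 passed 0.05 when Hep3B-Con replicate 2 (0.0663) or 3 (0.0557) or Hep3B-KD replicate 1 (0.0677) or 2 (0.0762) was left out, without the filter (0.0528), under median centring (0.0738), under quantile normalization (0.386) and with the replicate block (0.0512). Genes that had not passed turned sign: DAGLB to -0.034 under median centring and -0.0361 under quantile normalization, ABHD12 to -0.0900 under centring, -0.0186 without Hep3B-Con replicate 2 and -0.0427 without Hep3B-KD replicate 3, and ABHD6 to 0.042 and 0.0079 without the same libraries. With 1 library left out, ABHD12 ranged from -0.0427 to 0.0419 and ABHD6 from -0.0912 to 0.042. ABHD6 was furthest from 0 under quantile normalization (-0.275, adjusted p = 0.0527, limma). The cause was not tested.

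Of the 7 members, 2 passed under median centring, 2 under quantile normalization, and 2 to 4 with 1 library left out, the lowest without Hep3B-KD replicate 1. Over all genes, 7774 to 8967 passed (8529 in the text), and 495 to 1721 with a fold of at least 2 (1249 in the text). The lowest of these, 495, came with pseudocount 1, which shrinks fold changes by construction. Called genes were higher in 60.2%, but in 48.6% under median centring (4068 higher and 4308 lower). With a fold of at least 2, 832 were higher and 417 lower, against 615 and 535 under centring, 474 and 584 under quantile normalization, and 249 and 246 with pseudocount 1. The DAGLA share moved by -19.0 to -17.9 points and the MGLL share of FPKM by -0.084 to -0.0533 with 1 library left out (-0.0668 in the text), against -0.229 as a share of recovered reads. Replicates with the same number correlated at -0.008, -0.0645 and -0.0009 in their deviations from group means. Deviations of 3 libraries from their own mean are tied to each other, so these values cannot tell whether such replicates shared a batch. With the replicate number as a block, 7942 genes passed, 1238 with the fold, and 3 members. MGLL, at 2 to 7 reads per library, lay below the 0.5 FPKM set for testing.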
